A study of Mus musculus with 4 samples.

Results

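The replication-dependent histone genes of the mouse lie in clusters whose members carry symbols that begin with Hist1h, Hist2h, Hist3h or Hist4h. All genes with such a symbol in the deposited tables were taken, 70 of 55335 annotated genes, and no measured value entered the choice. By histone type they were 6 genes of the linker histone H1, 20 of H2A, 19 of H2B, 12 of H3 and 13 of H4. By cluster they were 56 Hist1 genes, 10 Hist2 genes, 3 Hist3 genes and 1 Hist4 gene, and 3 of the 70 were annotated as pseudogenes. The RNA came from oocytes of C57BL/6 mice, marked MII in the sample descriptions (metaphase of the second meiotic division), and was turned into Smart-Seq2 libraries, which suit very small inputs. There were 4 libraries, 2 of the genotype Control and 2 of the genotype Mutant. Mutant refers to mice with a changed base at the site where exon 3 of *Ezh2*, the gene of the histone H3 lysine 27 methyltransferase, is alternatively spliced. Such mice were made as Ezh2Long and Ezh2Short, and which form the Mutant oocytes had is not in their labels. The labels give neither the animals' age nor the number of oocytes per library, and they name no separate animals for the replicates, so each p-value reflects the spread among these libraries alone, which may be technical.

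Core histones H2A, H2B, H3 and H4 form the protein spool of the nucleosome, and H1 binds the DNA that enters and leaves it. Cells make most histone mRNA from these clustered genes in S phase. Their mRNAs are unusual in that they end in a short stem-loop instead of a poly(A) tail, and the stem-loop binding protein SLBP attaches there and serves processing, export and translation. Some clustered genes also yield polyadenylated or spliced transcripts that run past the stem-loop. Oocytes replicate no DNA after the last S phase before meiosis, and they store histone mRNA and protein for the embryo. Smart-Seq2 starts cDNA synthesis from poly(A) tails, so mRNAs without a tail are captured poorly or not at all.

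The stem-loop is shown first because it is what defines the class. In the models of GENCODE mouse release M21 (mm10), 45 members held the stem-loop in the model used for the gene (its longest protein-coding transcript), found on the transcript strand as the histone stem-loop consensus of 16 letters with a fully paired stem, and all 45 copies lay in the 3′ untranslated region. With the other transcripts of each gene counted, 46 of 70 members held it, against 79 of 55450 genes in all (0.142%). The element is printed in capitals between 5 flanking bases on each side for the most counted members that have it. Their places are chr3:96262939-96262954 on the minus strand (*Hist2h4*), chr3:96247327-96247342 on the plus strand (*Hist2h3c1*), chr13:23544932-23544947 on the plus strand (*Hist1h3f*), chr13:23698089-23698104 on the minus strand (*Hist1h4c*), chr13:23739512-23739527 on the plus strand (*Hist1h1c*) and chr13:23683477-23683492 on the minus strand (*Hist1h2ac*).
Hist2h4: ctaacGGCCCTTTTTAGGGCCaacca
Hist2h3c1: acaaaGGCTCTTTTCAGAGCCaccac
Hist1h3f: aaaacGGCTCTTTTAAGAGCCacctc
Hist1h4c: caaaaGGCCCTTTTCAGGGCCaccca
Hist1h1c: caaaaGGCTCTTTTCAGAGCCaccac
Hist1h2ac: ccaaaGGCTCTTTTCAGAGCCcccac
The stem differed by type. All 12 stem-loops of H4 genes had a stem that opens with GGCCCT or GGTCCT, and all 33 stem-loops of the other types had one that opens with GGCTCT. The model of *Hist1h1a* stopped 1 letter before the end of the element, with 15 of its 16 letters, and that of *Hist2h3b* stopped after 7.
Hist1h1a: aacccaacGGCTCTTTTCAGAGC

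Promoters were read from RefSeq (GRCm38.p6, the same assembly as mm10), where 61 of the 70 members were matched through their older symbols. The window ran from 250 bases before to 50 bases after the start, and each motif was searched on both strands. CCAAT was present in 52 of the 61 member windows, against 37.4% of all 32851 windows, and in 3 of the 12 H4 windows. TATAAA was present in 35, against 13.6% of all windows. ATTTGCAT, the octamer known from histone promoters, was present in 13, against 1.74% of all windows, and these were 7 H2A and 6 H2B genes. AAACACA, known from H1 promoters, was present in 9, against 7.18% of all windows, and 5 of them were H1 genes. These are matches of letters and not measured binding sites. Windows of divergent H2A and H2B neighbours can overlap, as those of *Hist1h2aa* and *Hist1h2ba* do, and 1 match then counts for both genes. The 61 windows are therefore not independent. The 150 bases before the start are printed, with matched motifs in capitals, for the genes of the set most counted in the matrix. These are *Hist1h1a* (chr13:23763518-23763667, plus strand) and *Hist1h2aa* (chr13:23934287-23934436, plus strand). *Hist1h2aa* and *Hist1h2ba* are divergent neighbours with 305 bases between their annotated genes, so the printed stretch lies upstream of both. None of the printed motifs overlap each other.
Hist1h1a: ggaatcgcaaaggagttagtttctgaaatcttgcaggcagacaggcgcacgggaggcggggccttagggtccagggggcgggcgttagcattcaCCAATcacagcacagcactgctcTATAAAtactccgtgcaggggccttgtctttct
Hist1h2aa: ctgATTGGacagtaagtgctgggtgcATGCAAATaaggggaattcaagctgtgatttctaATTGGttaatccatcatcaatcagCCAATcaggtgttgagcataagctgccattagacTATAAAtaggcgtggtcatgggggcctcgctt

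The clusters were barely represented in the oocyte libraries. Summed over the 70 genes, control 1 had 1059 counts, control 2 had 1052, mutant 1 had 1324 and mutant 2 had 1104, which was 0.00398%, 0.00419%, 0.00498% and 0.00415% of the matrix totals of 25090032 to 26617816 counts. Of the 70, 28 had 0 counts in all 4 libraries, which allows up to 3 counts over the 4 libraries or 0.0286 CPM (counts scaled to library size), a limit that covers counting error only and that holds only for members whose reads can be told from those of other genes. RSEM gave counts to 3 of the 28, among them the copies *Hist2h2aa1* and *Hist2h2aa2*. A further 21 had 10 or more counts in total, and 18 had a count in every library. *Hist1h2aa* and *Hist1h1a* alone held 69.2% of the members' counts in the matrix. By RSEM these genes had 154 and 1129 of the members' 2477 counts. In these bulk libraries, fewer cells with a transcript and less RNA per cell cannot be told apart.

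Detection in the matrix differed by type. Of the H1 genes 4 of 6 had 10 or more counts, of the H2A genes 3 of 20, of the H2B genes 5 of 19, of the H3 genes 5 of 12 and of the H4 genes 4 of 13. By cluster the numbers were 15 of 56 Hist1 genes, 3 of 10 Hist2 genes, 2 of 3 Hist3 genes and the single Hist4 gene, *Hist4h4*, with 11 counts. In the matrix the H2A genes thus had the smallest share of detected members although one of them, *Hist1h2aa*, was the most counted gene there. By RSEM 4 of 6 H1, 4 of 20 H2A, 3 of 19 H2B, 4 of 12 H3 and 2 of 13 H4 genes had 10 or more counts. The H2A share was then not the smallest, and *Hist1h2aa* had 154 RSEM counts against 1129 of *Hist1h1a*.

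**Figure D1:**
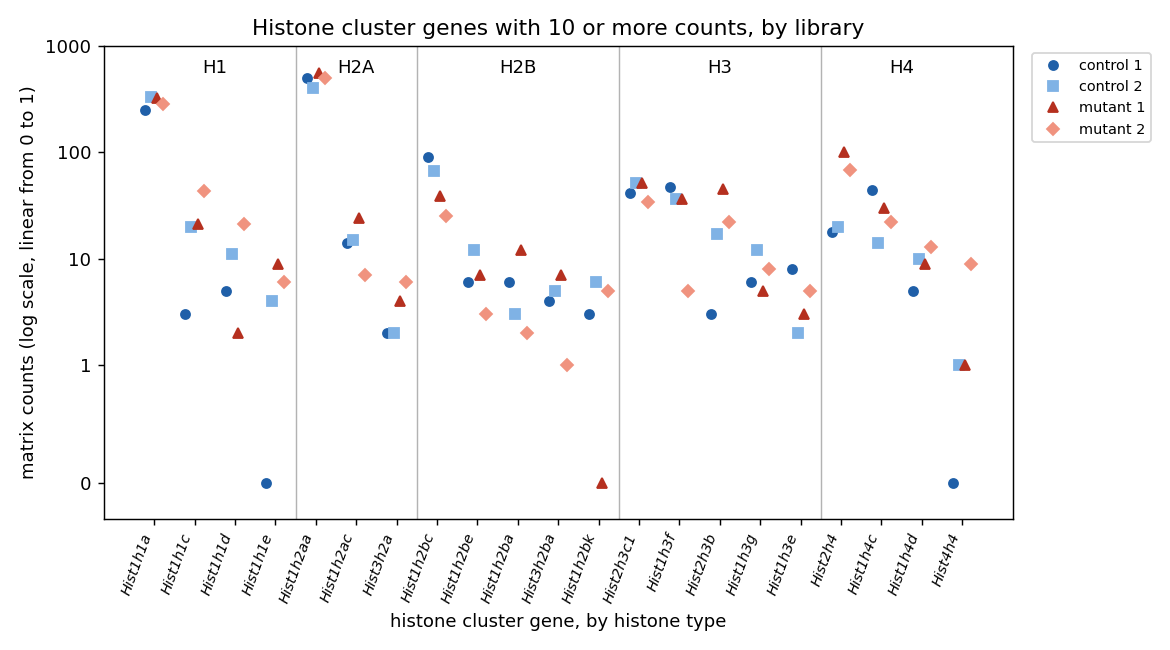
Matrix counts (vertical axis, logarithmic above 1 and linear from 0 to 1) of the 21 histone cluster genes with 10 or more counts in total, grouped by histone type, with 1 point per library and no error bars. *Hist1h2aa* and *Hist1h1a* stand above 250 counts in every library, and no other member passes 101 counts in any library.

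Per unit of length, the clusters were far below the histone genes outside them in these libraries. In TPM (transcript abundance divided by the effective length of the model) the 70 members summed to 76.2 and 93.5 in the controls and to 103 and 87.1 in the mutants. The 22 replication-independent histone genes on a list drawn up for comparison summed to 13218 and 12170 TPM in the controls and 16965 and 16278 TPM in the mutants, from 130 to 187 times as much. *H1foo*, the linker histone gene of the oocyte, was at 9877, 9189, 13614 and 13728 TPM, in the order control 1, control 2, mutant 1 and mutant 2, which is used from here on. It was from 209 to 350.5 times the TPM of *Hist1h1a*. *H3f3b*, which encodes the replacement histone H3.3, was at 2375, 2277, 2129 and 1926 TPM. Because mRNAs without a poly(A) tail are captured poorly or not at all, these ratios describe captured RNA and not the RNA of the oocyte. TPM also follows the RSEM counts, which for *Hist1h2aa* were 154 in total against 1944 in the matrix.

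Among the linker histone genes *Hist1h1a* (chromosome 13, 23763666 to 23764406, plus strand), which encodes the H1 subtype H1.1, led in every library. It was counted 252, 332, 327 and 285 times, and its TPM was 30.4, 44.0, 41.3 and 39.2. The control and mutant libraries overlapped, and no 50-base window of its model occurred in any other annotated gene. *Hist1h1c* (23738808 to 23740367) was counted 3, 20, 21 and 43 times, *Hist1h1d* 5, 11, 2 and 21 times and *Hist1h1e* 0, 4, 9 and 6 times. *Hist1h1b* had 8 counts, all in mutant 1, and *Hist1h1t*, the testis linker histone gene, had 0 in all libraries. *Hist1h1c* had its lowest count in control 1 and its highest in mutant 2, and control 2 lay beside mutant 1.

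Among the H2A genes *Hist1h2aa* (chromosome 13, 23934462 to 23934851, plus strand) encodes TH2A, a variant known from testis and oocyte. It was counted 495, 401, 552 and 496 times in the matrix. RSEM assigned it 37, 37, 44 and 36 expected counts, and its TPM was 25.4, 27.2, 33.7 and 32.0. The matrix total was 12.6 times the RSEM total. Of 12487 genes with 100 or more counts in either table and above 0 in both, 95.7% had a lower ratio. Among the 205 of these genes with a model under 500 bases, 58.5% had a lower ratio, and their median was 7.79. The model of *Hist1h2aa* is 390 bases long and all of it is coding, and its TPM rests on an effective length of 80.2 bases in control 1. Its divergent neighbour *Hist1h2ba* (23933773 to 23934156, minus strand), which encodes the partner variant TH2B, was counted 6, 3, 12 and 2 times, with a TPM of 2.22, 0.79, 3.31 and 0. The shared upstream stretch printed above thus lay beside genes with very different counts.

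Genes on both strands carried counts at *Hist1h2aa*. *Gm44344*, a predicted microRNA gene of 129 bases on the opposite strand inside *Hist1h2aa*, was listed with 459, 362, 493 and 429 counts, nearly as many as *Hist1h2aa* itself, and with 0 RSEM counts. Of the 70 members 23 had an annotated gene on the opposite strand across them, and in 19 H2A genes this was such a predicted microRNA gene. Only 3 of these 19 had 10 or more counts, and at *Hist1h2ac* and *Hist3h2a* the opposite gene had 9 and 2 counts in total against 60 and 14. Which strand the reads came from was not tested.

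The other H2A genes were low. *Hist1h2ac* (23681467 to 23683948) was counted 14, 15, 24 and 7 times and *Hist3h2a*, on chromosome 11, 2, 2, 4 and 6 times. *Hist2h2aa1* and *Hist2h2aa2*, identical copies over all 50-base windows of the second, had 0 counts in the matrix, and RSEM gave 0, 0, 7.28 and 1.65 to the first and 0.99, 4.12, 0 and 0 to the second. *Hist1h2ap*, which shared 93.1% of its windows with *Hist1h2ao*, had 1 count in the matrix and 5 and 9 RSEM counts in control 2 and mutant 1. The pattern of these copies across libraries is therefore uncertain, but their summed counts stayed low in both tables.

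Among the H2B genes *Hist1h2bc* (chromosome 13, 23684199 to 23692908, plus strand) was the most counted, with 90, 66, 39 and 25 matrix counts and 81, 54, 34 and 17 RSEM counts. Its TPM was 5.27, 3.77, 2.37 and 1.24. Both mutants lay below both controls in each of these units. Its model has 2 exons and joins the coding exon to a distant 3′ exon, and it holds no stem-loop. *Hist1h2be* was counted 6, 12, 7 and 3 times and *Hist3h2ba* 4, 5, 7 and 1 times, with overlap between the groups.

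Among the H3 genes *Hist2h3c1* (chromosome 3, 96246685 to 96248509, plus strand) was counted 41, 51, 52 and 34 times in the matrix and 73.3, 103, 81.9 and 47.7 times by RSEM. No window of its model was its own, since *Gm20634* covers the same place on the same strand and *Gm20634* was counted 44, 56, 61 and 39 times in the matrix. *Hist2h3b* (96268654 to 96269141) was counted 3, 17, 45 and 22 times in the matrix and 0 times by RSEM. It lies inside the antisense gene *Gm20628*, which was counted 7, 27, 54 and 25 times in the matrix and 1.01, 15.5, 26.3 and 9.6 times by RSEM, so the reads of *Hist2h3b* cannot be told from those of *Gm20628*. *Hist1h3f* (chromosome 13, 23544052 to 23545312) was counted 47, 36, 36 and 5 times, and mutant 2 alone stood apart. *Hist1h3g* was counted 6, 12, 5 and 8 times.

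Among the H4 genes *Hist2h4* (chromosome 3, 96261682 to 96263311, minus strand) was counted 18, 20, 101 and 68 times, with a TPM of 0.75, 0.81, 3.97 and 2.0. Both mutants lay above both controls, and 99.0% of the 50-base windows of its model occurred in no other annotated gene. *Hist1h4c* was counted 44, 14, 30 and 22 times and *Hist1h4d* 5, 10, 9 and 13 times. *Hist1h4h* had 0, 2, 3 and 2 counts. All H4 genes encode the same protein, so the sum over the type is given with the comparison of the groups.

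Members with reads tended to have gene models that run on past the stem-loop. Of the 67 protein-coding members, 23 had a model that ran 100 or more bases past it, and 14 of these (60.9%) had 10 or more counts. Of the 22 with a model that ended within 100 bases of it, 2 did (9.09%). These were *Hist1h3g* and *Hist1h2bk*. Of the 22 whose model held no stem-loop, 5 did (22.7%), namely *Hist1h2aa*, *Hist1h1a*, *Hist1h2bc*, *Hist2h3b* and *Hist1h2ba*, and these 22 held 76.9% of all counts. This describes the annotated models and does not show that the genes lack the element. The models of *Hist1h1a* and *Hist2h3b* stop inside it, and those of *Hist1h2aa* and *Hist1h2ba* hold coding sequence only. The split at 100 bases was chosen after the counts were seen. Longer models also collect more reads at an equal level, so these shares are a description with no test.

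**Figure D2:**
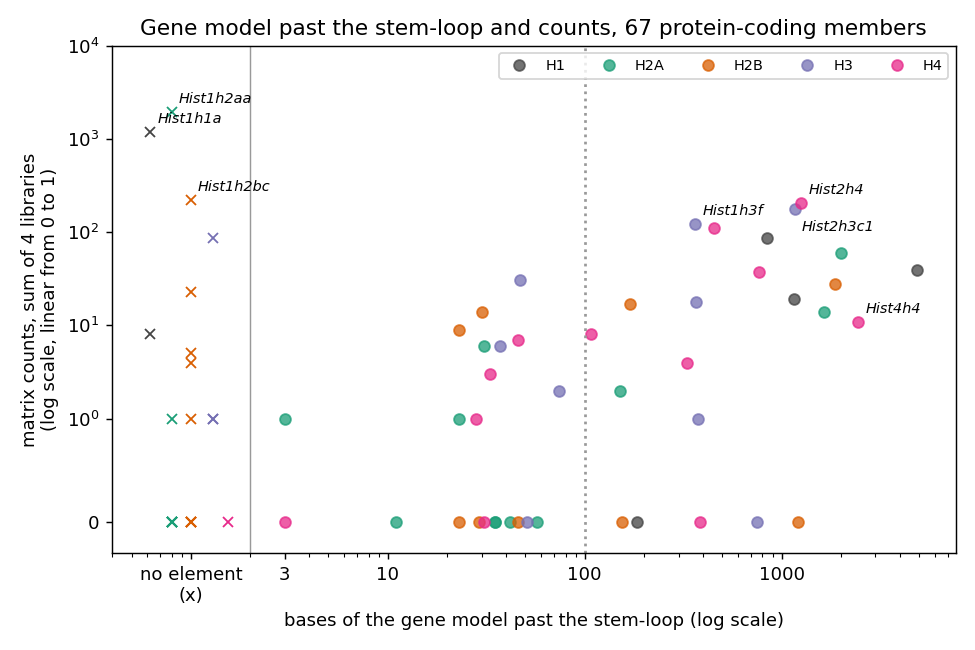
Matrix counts summed over 4 libraries (vertical axis, logarithmic above 1) against the bases of the gene model past the stem-loop (horizontal axis, logarithmic), for the 67 protein-coding members, with crosses at the left for models without the element and the dotted line at 100 bases. To the right of the dotted line 14 of 23 genes have 10 or more counts, and between the lines 2 of 22 do.

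Members also differed in how much sequence they share with other genes. Of the 33 members with at least 50% of their 50-base windows found in no other annotated gene, 16 had 10 or more counts, and of the 37 with fewer such windows 5 did, a description with no test. RSEM divides such reads among the copies. How they were counted for the matrix is unknown, and whether sharing explains differences between the tables was not tested. RSEM gave the 37 genes 374 counts in all against 355 in the matrix, but *Hist2h3c1* alone held 306 of the first and 178 of the second, and *Hist2h3b* went from 87 in the matrix to 0. Of the 70 members 25 were at 0 in both tables.

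**Figure D3:**
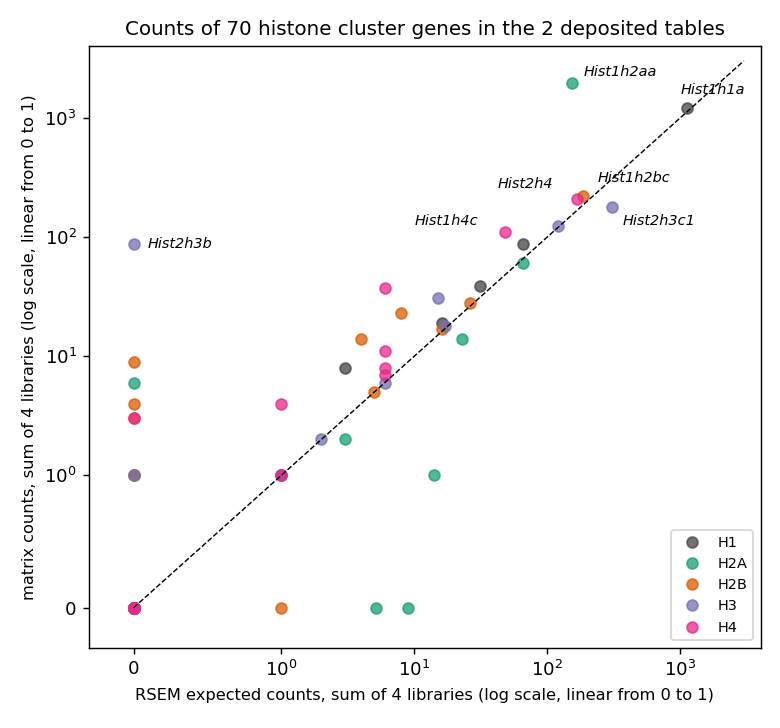
Counts of the 70 histone cluster genes summed over 4 libraries, in the matrix (vertical axis) against RSEM expected counts (horizontal axis), both logarithmic above 1 and coloured by histone type, with the dashed line at equal values. *Hist1h2aa* lies far above the line with 1944 against 154 counts, and *Hist2h3b* has 87 against 0.

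Mutant was compared with control to see whether transcripts of these genes differed between the genotypes. No histone cluster gene passed the test, higher or lower. A filter on low counts left 12 of the 70 to test (3 of H1, 2 of H2A, 1 of H2B, 3 of H3 and 3 of H4), and 0 of these 12 had a Benjamini-Hochberg adjusted p under 0.05 in the edgeR quasi-likelihood test, against 3.75% of all 15493 tested genes (1.77% higher and 1.98% lower in the mutants). At an unadjusted p under 0.05 there were 2 of 12, against 23.0% of all tested genes. With the RSEM counts 0 of 9 tested members passed, against 3.89% of all genes. With limma trend 0 of 12 passed, against 4.76%, and with DESeq2 1 of 12 passed, against 12.9%. In edgeR, 0 members also passed with RLE scaling (3.32% of all genes), with total counts (2.70%), with no filter (5.01%), with a mean of at least 10 CPM (9.48%), with the replicate block (7.83%), without control 1 (0.126%), without control 2 (0.155%) and without mutant 2 (6.02%). Without mutant 1 there was 1 (10.2%), and at an adjusted p under 0.1 there was 1 (11.1%). The 12 log2 fold changes, 6 of them positive, had a median of 0.02, and the median over all tested genes was 0.05. The other 58 members had from 0 to 31 counts each and 250 in all (42, 59, 86 and 63 by library). They were not tested with the filter. With no filter 42 members were tested, and 0 of them passed.

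The 2 members with a small unadjusted p were *Hist2h4* and *Hist1h2bc*. *Hist2h4* was at 0.725 and 0.794 CPM in the controls, against 3.59 and 2.55 CPM in the mutants, with means of 0.759 ± 0.0487 and 3.07 ± 0.730 CPM (SD, n = 2 each), a 4.04-fold difference. Its log2 fold change was 2.01 (SE 0.51), with an unadjusted 95% interval of 0.78 to 3.24, and it did not pass (edgeR adjusted p = 0.0801). DESeq2 called it (adjusted p = 0.0404), and over all alternatives its log2 fold change lay between 1.73 and 2.22 and its adjusted p between 0.0404 and 0.399. Without mutant 1 it was 1.73 (edgeR adjusted p = 0.142) and without mutant 2 it was 2.22 (edgeR adjusted p = 0.0744). The size of the difference thus held in either mutant library, and its call depended on the tool.

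*Hist1h2bc* was at 3.62 and 2.62 CPM in the controls, against 1.38 and 0.939 CPM in the mutants, with a control mean of 3.12 ± 0.711 CPM (SD, n = 2) that was 2.69 times the mutant mean (SD 0.315, n = 2). Its log2 fold change was -1.42 (SE 0.51), with an unadjusted 95% interval of -2.64 to -0.21, and it did not pass (edgeR adjusted p = 0.161, and from 0.0791 to 0.533 over the alternatives). Groups without overlap were seen for 4 of the 12 tested members (33.3%), the others being *Hist2h3b* and *Hist1h3f*, against 54.6% of all tested genes, so such separation is no mark of this set.

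The most abundant members were those with the narrowest intervals. *Hist1h2aa* was at 19.9 and 15.9 CPM in the controls, against 19.6 and 18.6 CPM in the mutants, with a log2 fold change of 0.09 (SE 0.23, edgeR adjusted p = 0.854) and an unadjusted 95% interval of -0.45 to 0.64. *Hist1h1a* was at 10.1 and 13.2 CPM in the controls, against 11.6 and 10.7 CPM in the mutants, with a log2 fold change of -0.06 (SE 0.27, edgeR adjusted p = 0.918) and an interval of -0.72 to 0.60. For these 2 genes a 2-fold difference in either direction lay outside the interval from matrix counts. With the RSEM counts of *Hist1h2aa*, which were far fewer, the log2 fold change was -0.013 with an SE of 0.592, so that table does not set the same limit. *Hist2h3c1* had a log2 fold change of -0.23 with an interval of -1.47 to 1.01.

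Of the remaining members *Hist1h3f* turned on 1 library. It was at 1.89 and 1.43 CPM in the controls, against 1.28 and 0.188 CPM in the mutants (log2 fold change -1.17, edgeR adjusted p = 0.486). Without mutant 1 its log2 fold change was -3.13 and it passed (edgeR adjusted p = 0.0436), and without mutant 2 it was -0.39 (edgeR adjusted p = 0.783). *Hist2h3b* (log2 fold change 1.60, edgeR adjusted p = 0.357), *Hist1h1c* (1.36, edgeR adjusted p = 0.458), *Hist1h4d* (0.43, edgeR adjusted p = 0.822) and *Hist1h4c* (-0.30, edgeR adjusted p = 0.855) did not pass. The sizes for *Hist1h1c* and *Hist2h3b* moved with single libraries. *Hist1h1c* was at 0.56 without control 1, 3.20 without control 2, 1.80 without mutant 1 and 0.69 without mutant 2, and at 0.80 with RSEM counts. *Hist2h3b* was at 0.83 without control 1, 3.23 without control 2, 1.04 without mutant 1 and 1.98 without mutant 2.

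**Figure D4:**
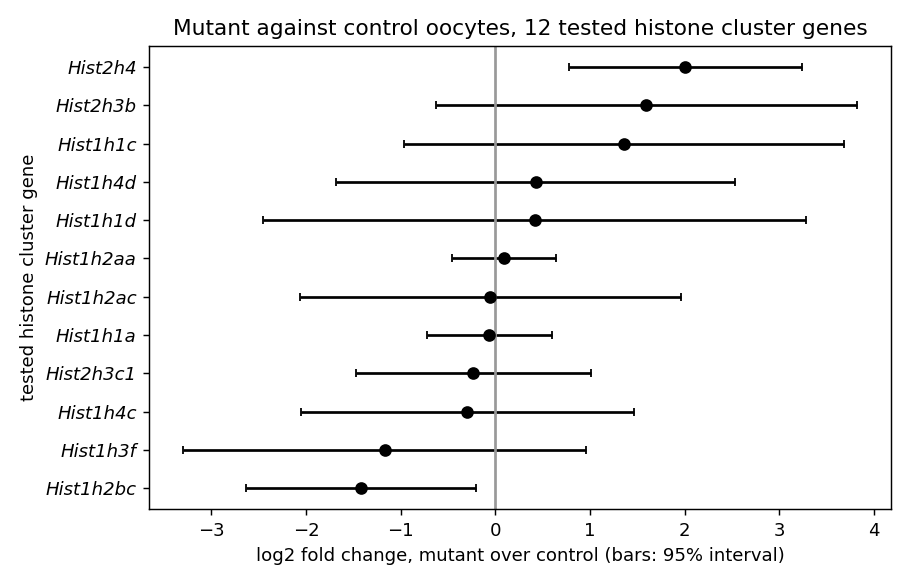
Log2 fold changes of mutant over control (points) with unadjusted 95% intervals from the edgeR quasi-likelihood fit (bars) for the 12 tested histone cluster genes, 2 libraries per group. The intervals of *Hist2h4* and *Hist1h2bc* lie to 1 side of 0 before adjustment over all genes, and neither gene passed after it.

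Sums over all members of a type depend less on how shared reads were divided between copies within the type. Reads shared with genes outside the set, such as those of *Hist2h3c1* with *Gm20634*, can still move the sums. The 70 members summed to 42.6 and 41.7 CPM in the controls and to 47.0 and 41.5 CPM in the mutants, and the groups overlapped. H1 genes summed to 10.5, 14.6, 13.0 and 13.3 CPM, H2A genes to 20.6, 16.7, 20.9 and 19.1 CPM and H3 genes to 4.27, 4.68, 5.22 and 2.93 CPM, all with overlap in the matrix. By RSEM the H3 genes summed to 5.66 and 5.97 CPM in the controls and 4.83 and 2.76 CPM in the mutants, without overlap. H2B genes summed to 4.59 and 3.77 CPM in the controls and 2.63 and 1.54 CPM in the mutants, and H4 genes to 2.70 and 2.06 CPM in the controls and 5.26 and 4.55 CPM in the mutants, without overlap. Each of these differences rested on 1 gene. Without *Hist1h2bc* the H2B genes summed to 0.966, 1.15, 1.24 and 0.601 CPM, and without *Hist2h4* the H4 genes to 1.97, 1.27, 1.67 and 1.99 CPM, and in both the groups overlapped. With 2 libraries per group an exact two-sided permutation test of such a sum cannot go below 0.333, so none was made.

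**Figure D5:**
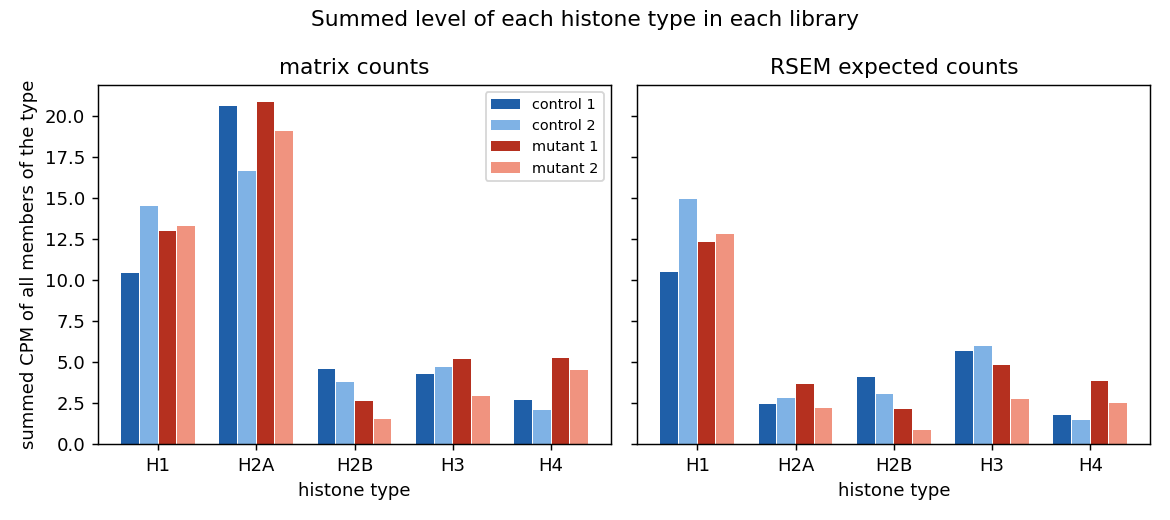
Summed CPM of all members of each histone type in each library (bars, 1 per library, with no error bars), from matrix counts on the left and from RSEM expected counts on the right. H2A differs most between the tables, at 16.7 to 20.9 CPM in the matrix and 2.19 to 3.66 CPM by RSEM, while H2B is lower and H4 higher in both mutants in both tables, and H3 is lower in both mutants by RSEM but overlaps in the matrix.

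By cluster, the Hist1 genes on chromosome 13 summed to 39.7, 37.9, 39.3 and 36.2 CPM. The Hist2 genes on chromosome 3 summed to 2.66, 3.53, 7.21 and 4.66 CPM in the matrix, without overlap between the groups, and to 3.95, 5.30, 6.97 and 3.71 CPM by RSEM, with overlap. Without *Hist2h4* the matrix sums were 1.93, 2.74, 3.62 and 2.10 CPM, and the groups overlapped. Of the Hist2 genes only *Hist2h4*, *Hist2h3b* and *Hist2h3c1* were abundant enough to test. The Hist3 genes had 6, 7, 14 and 7 counts.

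Markers of other cells moved with the libraries. The 12 oocyte markers were all tested, 0 passed, and they summed to between 15361 and 17956 CPM, led by *H1foo* and *Gdf9*, which encodes an oocyte growth factor (4144, 3648, 2807 and 3562 CPM). The 20 cumulus and granulosa markers summed to 76.4 and 57.1 CPM in the controls and to 387 and 64.9 CPM in mutants 1 and 2, with 4 of the 20 at 0 in both controls and none at 0 in both mutants. *Gja1*, which encodes a connexin, and *Cyp19a1*, the aromatase gene, were the most abundant of these, at 10.9, 0, 99.3 and 7.96 CPM and at 34.2, 42.5, 16.4 and 23.6 CPM. *Cyp19a1* was the largest single part of each control sum, at 34.2 of 76.4 CPM in control 1 and 42.5 of 57.1 CPM in control 2. Of the 20, 12 were tested and 0 passed, with 10 positive and a median log2 fold change of 3.28. The 15 leukocyte markers summed to 36.6 and 37.3 CPM in the controls and to 48.5 and 253 CPM in the mutants, with 10 of the 15 at 0 in both controls and none at 0 in both mutants. Of the 15, 6 were tested, 5 of them with a positive log2 fold change (median 3.19), and 2 passed, against 3.75% of all tested genes. These were *Lyz2* at 0.362, 0.0397, 8.03 and 3.83 CPM (edgeR adjusted p = 0.0437) and *Cd74* at 0, 0, 2.70 and 1.01 CPM (edgeR adjusted p = 0.0428). The 7 erythroid markers summed to at most 2.26 CPM, and *Alas2* and *Hba-a1* were the most abundant of them. Only 1 of the 7 was tested, and it did not pass. *Hist2h4* was higher in both mutants and highest in mutant 1, and the part of other cells in its difference was not tested.

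The factors that make and process histone mRNA ranged in mean level from 0.643 CPM (*Cpsf4*) to 6927 CPM (*Slbp*), and none was called. All 35 genes found of this list were tested, and 0 passed in either direction by the edgeR test (median log2 fold change 0.08, with 20 positive). *Slbp*, which encodes the stem-loop binding protein, was at 7906 and 6778 CPM in the controls, against 5960 and 7065 CPM in the mutants (log2 fold change -0.17, SE 0.19, edgeR adjusted p = 0.652). *Wdr33*, of the polyadenylation machinery, was at 614, 570, 725 and 783 CPM (log2 fold change 0.35, edgeR adjusted p = 0.218). Of 40 DNA replication genes 39 were tested and 0 passed (median -0.08), with *Orc6*, an origin recognition gene, at a log2 fold change of -0.40 (edgeR adjusted p = 0.249) and *Nasp*, a histone chaperone gene, at 0.12 (edgeR adjusted p = 0.670). Of the 22 replication-independent histone genes 12 were tested and 0 passed (median 0.20), with *H1foo* at 0.30 (edgeR adjusted p = 0.365) and *H3f3b* at -0.37 (edgeR adjusted p = 0.239).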

How the data were processed

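Deposited values were, in 1 matrix, raw counts per gene and, for each library, a table with estimated counts (expected counts), TPM, FPKM and gene lengths in bases, per the file headers in the form RSEM writes. The submitters' processing notes name cutadapt 1.16, STAR, RSEM and mm10. Not given in the sources used here are their settings, the counter behind the matrix and its use of strand. FPKM, deposited by the authors per the file headers, was not used. The deposited lengths are the authors' and enter their TPM. Groups and replicate numbers came from the titles.

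The main test was run on matrix counts with edgeR 4.0.16 under R 4.3.3 (TMM, filterByExpr, quasi-likelihood test, genotype as the only term, 2 residual degrees of freedom, adjusted p under 0.05 over all tested genes). Standard errors are the log2 fold change over the root of the F statistic, without sign. CPM divide by TMM-adjusted totals over tested genes. Alternatives used DESeq2 1.42.0, limma 3.58.1 (prior count 2), other scalings and filters, RSEM counts rounded to whole numbers, a replicate block, each library left out and other thresholds. The edgeR script was tested on simulated counts. All 70 members matched GENCODE M21 by versioned ID. Sequence windows and motifs were counted in Python 3.11.15 with pandas 2.3.3, and amplified reads are not independent molecules.

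Members, lists and tests were chosen with earlier results of these data known. The rule for named members took the 3 with the highest mean TPM per type and any past the threshold. It took up to 4 tested members with the largest change in each direction. It also took the 4 with the largest ratio between the tables, either way, among members with 100 or more counts in either. Lists gave members past the threshold or else their 2 most abundant genes. *Cpsf4*, *Hist1h1b*, *Hist1h1d*, *Hist1h1t*, *Hist1h2ac*, *Hist1h2ao*, *Hist1h2be*, *Hist1h2bk*, *Hist2h2aa2*, *Hist3h2a*, *Hist4h4* and the genes that overlap members were named after their values were seen.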

Additional observations from a re-analysis of the deposited data

How the results depend on the processing

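The count of 581 called genes became 1993 with DESeq2, 1322 with no filter on low counts, 1721 and 113 at adjusted p under 0.1 and 0.01, and from 22 to 1688 with a library left out. It became 1213 with the replicate block. Same-numbered libraries deviated together only weakly (correlation 0.18 over genes, from 2 pairs), and nothing in the labels says that the numbers pair them, so the block was not used for the results. The count of histone cluster genes called higher was 1 with DESeq2 and 1 at adjusted p under 0.1 (*Hist2h4* in both) and 0 under the other alternatives. The count called lower was 1 without mutant 1 (*Hist1h3f*), 0 under the other alternatives, and from 0 to 1 with a library left out. The median of the tested members (0.02) was 0.78 with no filter, -0.18 with RSEM counts and from -0.20 to 0.00092 with a library left out.

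The log2 ratio of summed CPM became, without the most counted member, 1.24 for H1, 0.30 for H2A, -0.20 for H2B, 0.17 for H4, -0.17 for Hist1, 0.29 for Hist2 and 1.57 for Hist3. With RSEM counts it became -0.62 for H3, -0.25 for Hist1, 0.21 for Hist2 and -0.14 for all members, and with total counts 0.052 for Hist1 and 0.16 for all members. With a library left out it ran from -0.14 to 0.33 for H1, -0.044 to 0.26 for H2A, -1.44 to -0.67 for H2B, -0.61 to 0.22 for H3, 0.86 to 1.25 for H4, -0.10 to 0.017 for Hist1, 0.59 to 1.22 for Hist2, 0.018 to 0.94 for Hist3 and -0.025 to 0.16 for all members, and without mutant 1 the Hist3 and all-member values were the lowest.

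The direction of members near 0 changed with the setting. *Hist1h1a* was at 0.023 with total counts, *Hist1h2ac* at 0.055 with total counts and *Hist1h2aa* at -0.013 with RSEM counts. *Hist1h1d* was at -0.080 with limma trend, -0.071 with the replicate block and -0.18 with RSEM counts. With a library left out the values ran from -0.25 to 0.088 for *Hist1h1a*, -2.10 to 1.28 for *Hist1h1d*, -0.11 to 0.25 for *Hist1h2aa*, -1.14 to 0.54 for *Hist1h2ac* and -0.95 to 0.75 for *Hist1h4c*. Of 131 values of tested members under alternatives, 12 changed direction. The cause was not tested. Where a group is left with 1 library, that library is assumed to vary like the others. The depth needed to see a difference in the members with few counts was not measured.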
